A study of Homo sapiens with 38 samples.

Results

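The genes described here were lowered after 6 h and raised after 14 days of treatment with a histone deacetylase inhibitor in 5 lymphoma lines. Histone deacetylases remove acetyl groups from histones and other proteins. Vorinostat and pracinostat inhibit them, and each molecule carries a hydroxamic acid group that binds the zinc ion of the enzyme. The members were chosen by their measured response. D6 is the mean over the 5 lines and both drugs of drug minus DMSO at 6 h, in log2 CPM (reads per gene scaled to a common library size, here with trimmed-mean-of-M-values, TMM, factors and a prior count of 2). D14 is the corresponding mean at 14 days. A gene is a member where D6 is -0.5 or less, D14 is 0.5 or more and its mean over all 37 libraries is at least 2 log2 CPM. Of the 18011 genes in the table, 10187 met the level rule and 103 were members. Since these contrasts chose the members, D6 and D14 are given as descriptions and are not tested.

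The study compared OCILY1, PFEIFFER, SUDHL4, SUDHL6, TOLEDO and WSUDLCL2, established diffuse large B-cell lymphoma lines, by RNA sequencing. At 6 h there were 6 libraries with pracinostat, 5 with vorinostat and 6 with DMSO, the solvent of both drugs. At 14 days there were 5 libraries with pracinostat, 5 with vorinostat and 5 in each of the solvent sets titled DMSOP and DMSOV, 1 per line. SUDHL6 was measured at 6 h with pracinostat and DMSO and did not enter D6 or D14. The labels give no genotype, dose or medium change, and do not say what the last letter of DMSOP and DMSOV stands for, so both sets were averaged. Column headers of the deposited normalized values name the 6 h DMSO as DMSOP in PFEIFFER and TOLEDO. They name it as DMSOV in OCILY1, SUDHL4, SUDHL6 and WSUDLCL2, so line and solvent set cannot be told apart at 6 h. With a single library for each line in each group, replicates are the lines. The tests take the line as a block, so p-values measure the spread left after each line's own level is removed. Below, 5 values in a row are always in the order OCILY1, PFEIFFER, SUDHL4, TOLEDO and WSUDLCL2.

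On lists of B-cell genes, members were 5 of 40 genes of receptor signalling, 2 of 19 of MHC class II presentation, 1 of 32 transcription factors and 1 of 43 of activation and homing. The role groups used below were formed after the values were seen. A B cell senses antigen through its receptor, whose signalling chains CD79A and CD79B recruit kinases, while CD22 with the phosphatase PTPN6 damps the signal. Germinal centre B cells, the cells from which most of these lymphomas derive, refine their antibodies and present antigen to T cells on MHC class II molecules.

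Depth per library lay between 3.19 and 8.92 M counts (M, mega). Where a gene has no read in a library, up to 3 counts remain possible, or 0.332 to 1.02 CPM over the libraries (below, the 3-count limit, which covers counting error only). The B-cell markers MS4A1, CD79A, CD79B, PAX5 and CD22 were all in the table, and their summed CPM ran from 1769 to 9049 over the libraries. At 6 h the median of this sum was 2481 CPM with pracinostat and 2441 CPM with vorinostat, against 5449 CPM with DMSO. At 14 days it was 6183 CPM with pracinostat and 4120 CPM with vorinostat, against 3161 CPM in DMSOP and 3417 CPM in DMSOV. MS4A1, CD79B and CD22 are members, so the rule itself favours this course of the sum. CD79A, not a member, had 14 day medians of 556 CPM with pracinostat and 591 CPM with vorinostat. Its medians were 608 CPM in DMSOP and 543 CPM in DMSOV. PAX5, also no member, had 436 CPM with pracinostat and 401 CPM with vorinostat, against 300 CPM in DMSOP and 279 CPM in DMSOV. SUDHL6 is in the 6 h medians of pracinostat and DMSO alone. All 37 libraries were nearest to a library of their own line. The share of mitochondrially encoded counts was 14.4% ± 2.12 with pracinostat and 14.8% ± 3.15 with vorinostat at 14 days, against 8.97% ± 1.88 in DMSOP and 10.2% ± 2.19 in DMSOV (SD, n = 5 each). Of 6 myeloid markers, 3 were in the table (ITGAM, CSF1R and CD33), and their summed level had a median of 13.8 CPM with pracinostat and 16.1 CPM with vorinostat at 14 days, against 0.232 CPM in DMSOP and 0.653 CPM in DMSOV. Their ranges at 14 days were 0.780 to 19.5 CPM with pracinostat and 1.08 to 37.1 CPM with vorinostat, against 0 to 1.57 CPM in DMSOP and 0 to 1.67 CPM in DMSOV. Of 4 fibroblast markers 3 were in the table (COL1A1, DCN and LUM), with a median sum of 19.8 CPM (5.93 to 56.3) with pracinostat and 36.5 CPM (2.35 to 38.7) with vorinostat at 14 days, against 4.17 CPM (0 to 50.4) in DMSOP and 4.04 CPM (0 to 65.2) in DMSOV. Of 6 T-cell markers 4 were in the table (CD3D, CD3E, CD5 and TRAC), with 13.1 CPM (1.25 to 92.9) with pracinostat and 9.56 CPM (0.722 to 100.7) with vorinostat, against 2.91 CPM (1.11 to 60.8) in DMSOP and 3.88 CPM (0.980 to 68.0) in DMSOV. TRAC alone had medians of 9.77 CPM with pracinostat and 7.17 CPM with vorinostat, against 1.79 CPM in DMSOP and 1.60 CPM in DMSOV. CD3D and CD3E had medians of 0 CPM with both drugs at 14 days. The endothelial marker PECAM1 had 14 day medians of 7.49 CPM with pracinostat and 1.84 CPM with vorinostat. Its medians were 0.498 CPM in DMSOP and 1.11 CPM in DMSOV. The natural killer cell markers NKG7 and NCAM1 had median sums of 1.56, 1.62, 0.695 and 0.490 CPM in the same order. The epithelial sum (EPCAM, KRT8 and KRT18) had maxima of 103, 93.4, 284 and 280 CPM in that order. The part of any of these in the values below was not tested.

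Few genes were lower with the drugs at 6 h and higher at 14 days. In bulk libraries, a lower share of cells that express a gene and a lower level per cell cannot be told apart. Of the 1698 genes with D6 of -0.5 or less (16.7% of the 10187), 103 had D14 of 0.5 or more, a share of 6.07%, and 534 (31.4%) had D14 of -0.5 or less. Of the 1705 genes with D14 of 0.5 or more (16.7%), the members made up 6.04%. The members' median was -0.76 for D6 and 0.73 for D14, against 0.02 and -0.06 over all 10187 genes. They were expressed at a lower mean level than the rest of the table, with a median of 3.40 against 5.13 log2 CPM. Their differences also varied more between lines: the median SD over the 5 lines was 0.60 for D6 and 0.72 for D14, against 0.32 and 0.35 over all genes.

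**Figure D1:**
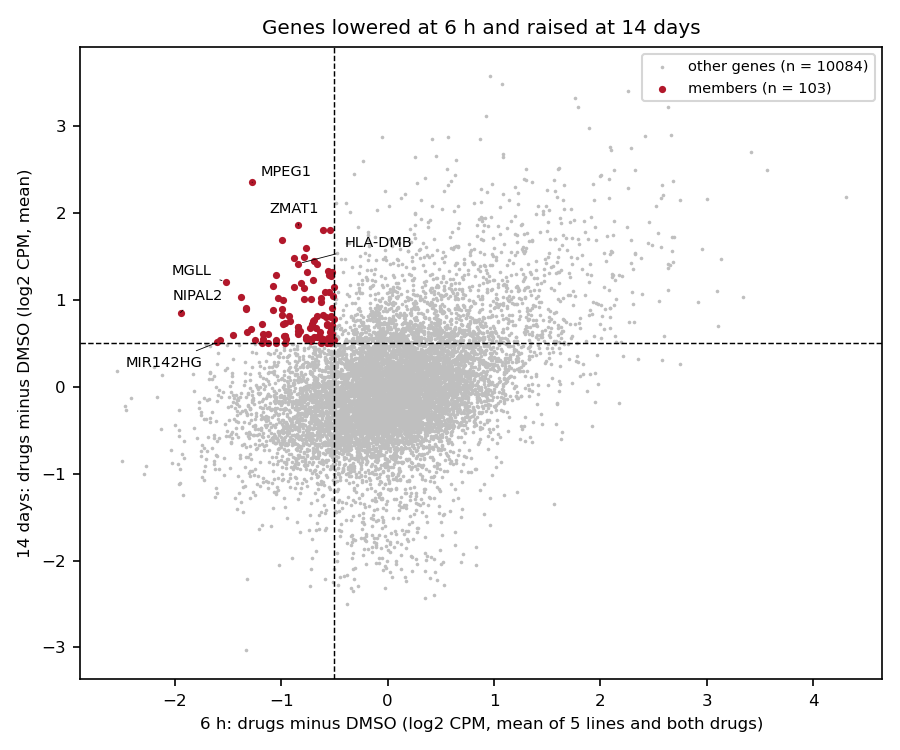
Each point is 1 of the 10187 genes with a mean of at least 2 log2 CPM, with D6 (drugs minus DMSO at 6 h) on the x axis and D14 (drugs minus DMSO at 14 days) on the y axis, both in log2 CPM averaged over 5 lines and both drugs. Dashed lines are the thresholds of -0.5 and 0.5, and the 103 members are the dark points of the upper left corner, where MPEG1 is the highest and NIPAL2 lies farthest to the left.

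The lines took unequal parts in the pattern. Median D6 of the members was -1.25 in SUDHL4, -0.89 in WSUDLCL2, -0.88 in OCILY1, -0.61 in PFEIFFER and -0.53 in TOLEDO. Median D14 was 1.05 in PFEIFFER, 0.81 in SUDHL4, 0.78 in WSUDLCL2, 0.59 in TOLEDO and 0.56 in OCILY1. SUDHL4 thus had the strongest lowering and PFEIFFER the strongest raising, while TOLEDO was weak at the first time point. The only DMSO library of SUDHL4 at 6 h was the shallowest of that time, with 3.29 M counts. At 6 h, 52 members were lower in every line (21.8% of all genes were), and at 14 days 51 were higher in every line (15.9%). Both held in every line for 28 members (27.2%), against 127 of all 10187 genes (1.25%), and the choice of members favours all 3 counts. The 28 included VPREB3 and RFTN1 of the B-cell receptor group, the surface genes MS4A1 and TNFRSF13C, and HLA-DMB.

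**Figure D2:**
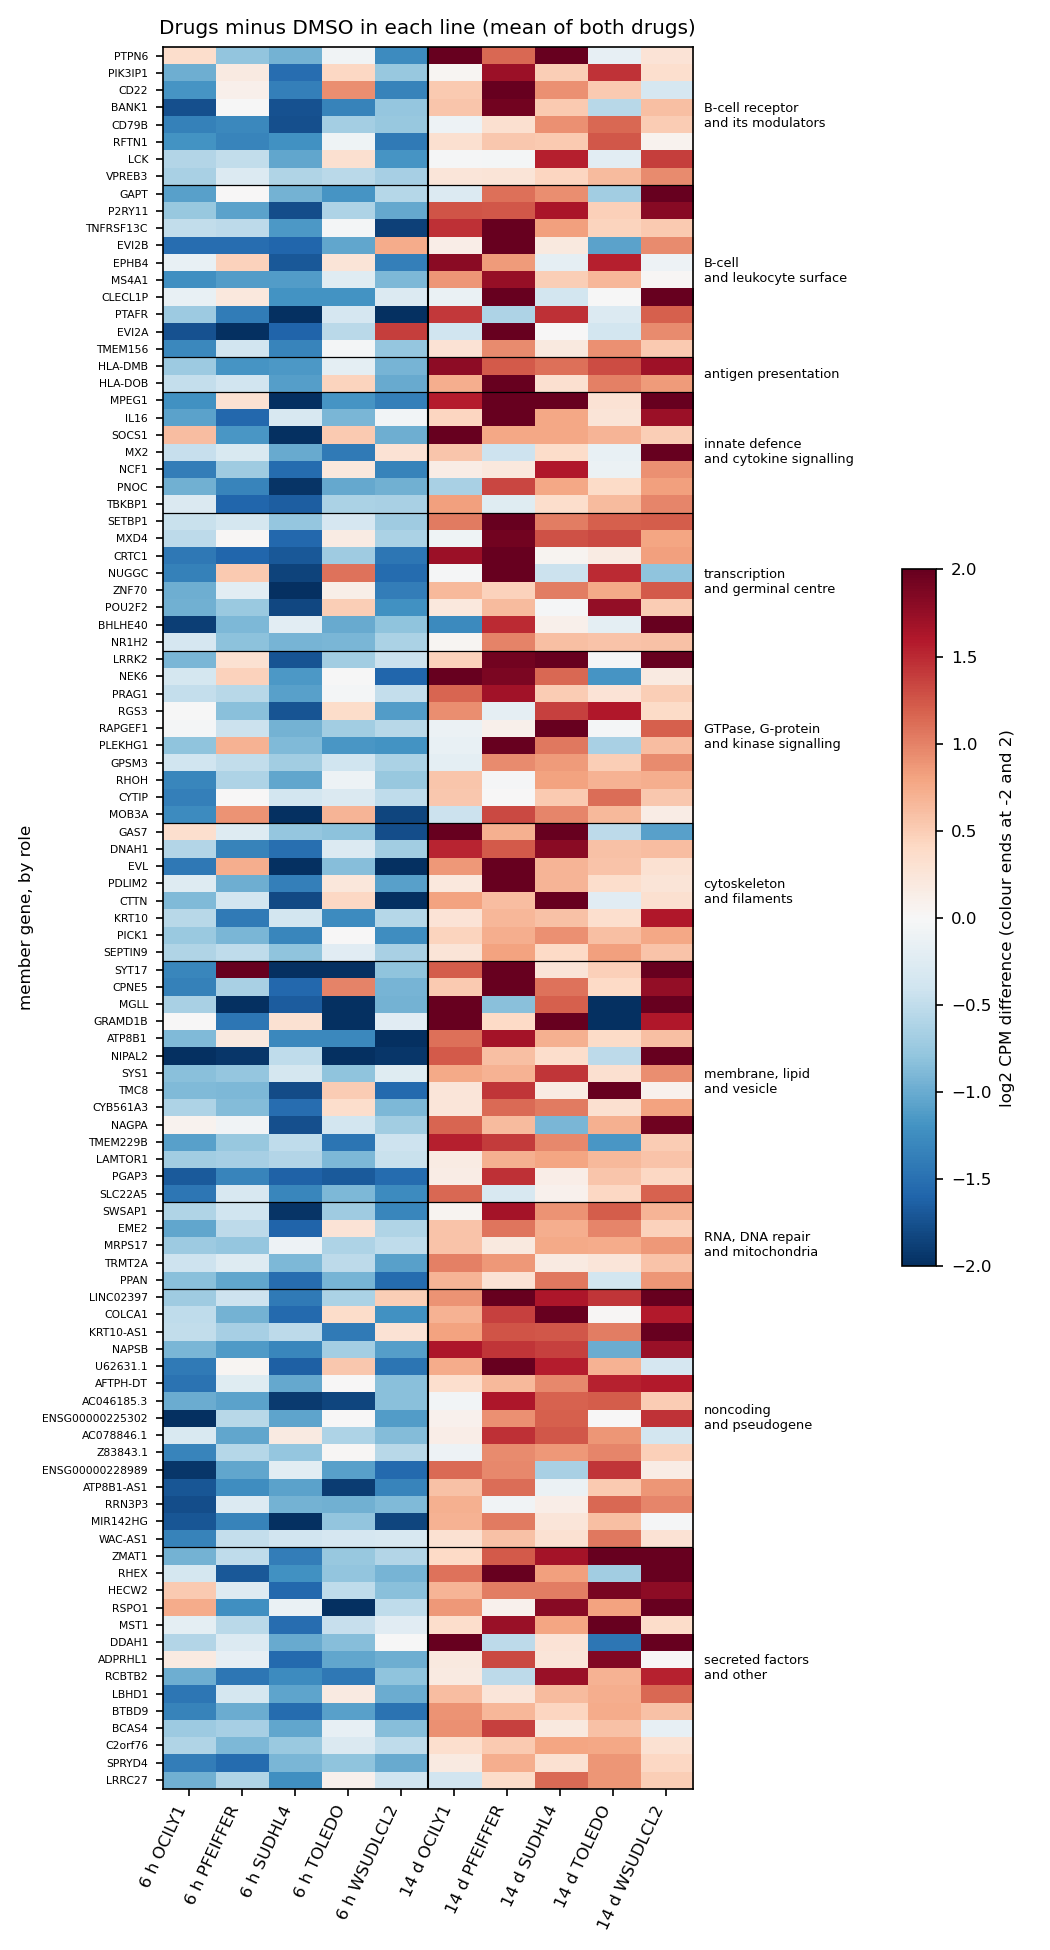
Rows are 101 of the 103 members grouped by role and columns are the 5 lines at 6 h (left) and at 14 days (right), with colour for drugs minus DMSO in log2 CPM, averaged over both drugs and ending at -2 and 2. SUDHL4 at 6 h and PFEIFFER at 14 days have the deepest colours, and TOLEDO at 6 h has the most members of the opposite sign (27 of all 103 above 0).

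The B-cell receptor group had 9 members, whose D6 ran from -1.17 to -0.53 and D14 from 0.50 to 1.29. CD79B, a signalling chain of the receptor (chr17:63928740-63932354, minus strand, GRCh38), had 350.2, 463, 187, 678 and 279 CPM with pracinostat and 331, 444, 164, 475 and 256 CPM with vorinostat, against 871, 1109.6, 593, 910.5 and 453 CPM with DMSO at 6 h. Its 14 day levels were 477, 1172, 507, 1092 and 371 CPM with pracinostat and 489.9, 1217, 476, 2124 and 426 CPM with vorinostat, against 496, 930.0, 274, 722 and 353 CPM in DMSOP and 543, 988, 249, 648 and 223 CPM in DMSOV. CD79B was below its own line's DMSO with both drugs in all 5 lines at 6 h, and above both DMSO sets at 14 days in 4 lines but not in OCILY1, with mean differences of -1.17 ± 0.45 at 6 h and 0.56 ± 0.49 at 14 days (SD over 5 lines, here and below).

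CD22, a lectin that restrains the receptor (chr19:35319261-35347355, plus strand), split the lines. It had 501, 79.5, 488, 92.1 and 490.3 CPM with pracinostat and 577, 75.1, 554, 95.6 and 663 CPM with vorinostat, against 1213, 71.7, 1338, 49.4 and 1438 CPM with DMSO at 6 h. Its levels at 14 days were 1348, 345, 1601, 113 and 1849 CPM with pracinostat and 1477, 327, 1361, 104 and 579.5 CPM with vorinostat, against 1016, 80.0, 774, 70.5 and 1527 CPM in DMSOP and 955, 87.1, 790.3, 79.7 and 1107 CPM in DMSOV. At 6 h CD22 was lower with both drugs in OCILY1, SUDHL4 and WSUDLCL2, and higher in PFEIFFER and TOLEDO, the lines with the lowest DMSO levels. At 14 days it was above both DMSO sets in all 5 lines with pracinostat, and with vorinostat in all lines but WSUDLCL2. The noncoding member U62631.1 lies inside CD22 on the same strand, so reads of the pair could have been shared between them.

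PTPN6, the tyrosine phosphatase SHP-1 that acts at inhibitory receptors, had 4.91 to 167 CPM (median 64.1) in the 10 drug libraries against 12.1 to 301 CPM (median 66.5) in the 5 DMSO libraries at 6 h. It had 12.5 to 247 CPM (median 89.5) in the drug libraries against 6.62 to 210.3 CPM (median 15.1) in the DMSO libraries at 14 days. The groups overlapped at both times, and D14 of PTPN6 ran from -0.16 in TOLEDO to 2.97 in SUDHL4. BANK1, a B-cell scaffold protein, had 70.2, 0.321, 54.7, 41.3 and 47.3 CPM with pracinostat and 60.1, 0, 42.9, 28.9 and 44.3 CPM with vorinostat, against 221, 0.137, 162, 87.4 and 78.4 CPM with DMSO at 6 h and so was at or under the 3-count limit in PFEIFFER, where its fitted difference depends on the prior count. LCK, a SRC-family kinase best known from T cells, differed at 14 days by 1.56 in SUDHL4 and 1.38 in WSUDLCL2, and by -0.02, -0.04 and -0.20 in OCILY1, PFEIFFER and TOLEDO. RFTN1, a lipid raft protein of B cells, differed by -1.05 ± 0.54 at 6 h and 0.54 ± 0.43 at 14 days. PIK3IP1, an inhibitor of PI3-kinase, differed by -0.53 ± 0.81 at 6 h and 0.80 ± 0.73 at 14 days. VPREB3, a protein bound to the receptor chains in precursor B cells, lay close to the 14 day threshold with -0.54 ± 0.16 at 6 h and 0.50 ± 0.29 at 14 days.

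Among the 10 genes for B-cell and leukocyte surface proteins, MS4A1 encodes CD20, the target of rituximab (chr11:60455752-60470760, plus strand). MS4A1 had the highest mean level of the members at 10.42 log2 CPM. At 6 h it had 502, 1471, 1156, 356 and 2175 CPM with pracinostat and 529, 1320.2, 1168, 361 and 1426 CPM with vorinostat, against 1205, 3010.3, 2516, 424 and 3289.8 CPM with DMSO. At 14 days it had 1296, 5078, 2773, 839 and 2958 CPM with pracinostat and 1179, 6548, 2125, 692 and 2122 CPM with vorinostat, against 673, 1639.7, 1686, 492 and 2707 CPM in DMSOP and 660.4, 1793, 1756, 475 and 2250.4 CPM in DMSOV. Both drugs were below DMSO in all 5 lines at 6 h, by little in TOLEDO, and above both DMSO sets at 14 days in every line with pracinostat and in 4 lines with vorinostat, with WSUDLCL2 the exception. PFEIFFER had the largest 14 day difference, 1.75, and WSUDLCL2 the smallest, 0.02.

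TNFRSF13C, the receptor of the survival factor BAFF (chr22:41922023-41926818, minus strand), had 30.3, 14.6, 44.0, 24.0 and 31.6 CPM with pracinostat and 33.0, 11.3, 45.7, 29.8 and 42.4 CPM with vorinostat, against 44.5, 18.5, 99.8, 27.4 and 135 CPM with DMSO at 6 h. After 14 days TNFRSF13C had 132, 58.1, 173, 49.6 and 247 CPM with pracinostat and 97.7, 34.0, 126, 25.3 and 83.5 CPM with vorinostat, against 45.4, 6.87, 92.4, 27.2 and 137 CPM in DMSOP and 36.6, 5.99, 75.5, 24.7 and 72.0 CPM in DMSOV. Its largest 14 day difference was in PFEIFFER, 2.73, where DMSO was lowest. PTAFR, the receptor of platelet-activating factor, differed by -1.32 ± 0.78 at 6 h and 0.63 ± 1.00 at 14 days, and was below DMSO at 14 days in PFEIFFER (-0.62). EVI2B and EVI2A are neighbouring genes inside an intron of NF1, 3448 bases apart on the same strand. EVI2B differed by -0.98 ± 0.99 at 6 h and 1.00 ± 2.23 at 14 days and EVI2A by -0.97 ± 1.47 at 6 h and 0.59 ± 1.32 at 14 days. In WSUDLCL2 both were above DMSO at 6 h (0.74 for EVI2B and 1.38 for EVI2A), opposite to the other 4 lines, and the largest 14 day differences were in PFEIFFER (4.77 and 2.74). P2RY11, a receptor for extracellular ATP, differed by -1.05 ± 0.45 at 6 h and 1.29 ± 0.52 at 14 days, but its gene overlaps PPAN, also a member, on the same strand, so their reads could have been shared. EPHB4, a receptor of ephrins, was the member nearest to the 6 h threshold (-0.50 ± 0.97 at 6 h and 0.79 ± 0.91 at 14 days). TMEM156, GAPT and CLECL1P completed the group, although the symbol CLECL1P is that of a pseudogene.

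**Figure D3:**
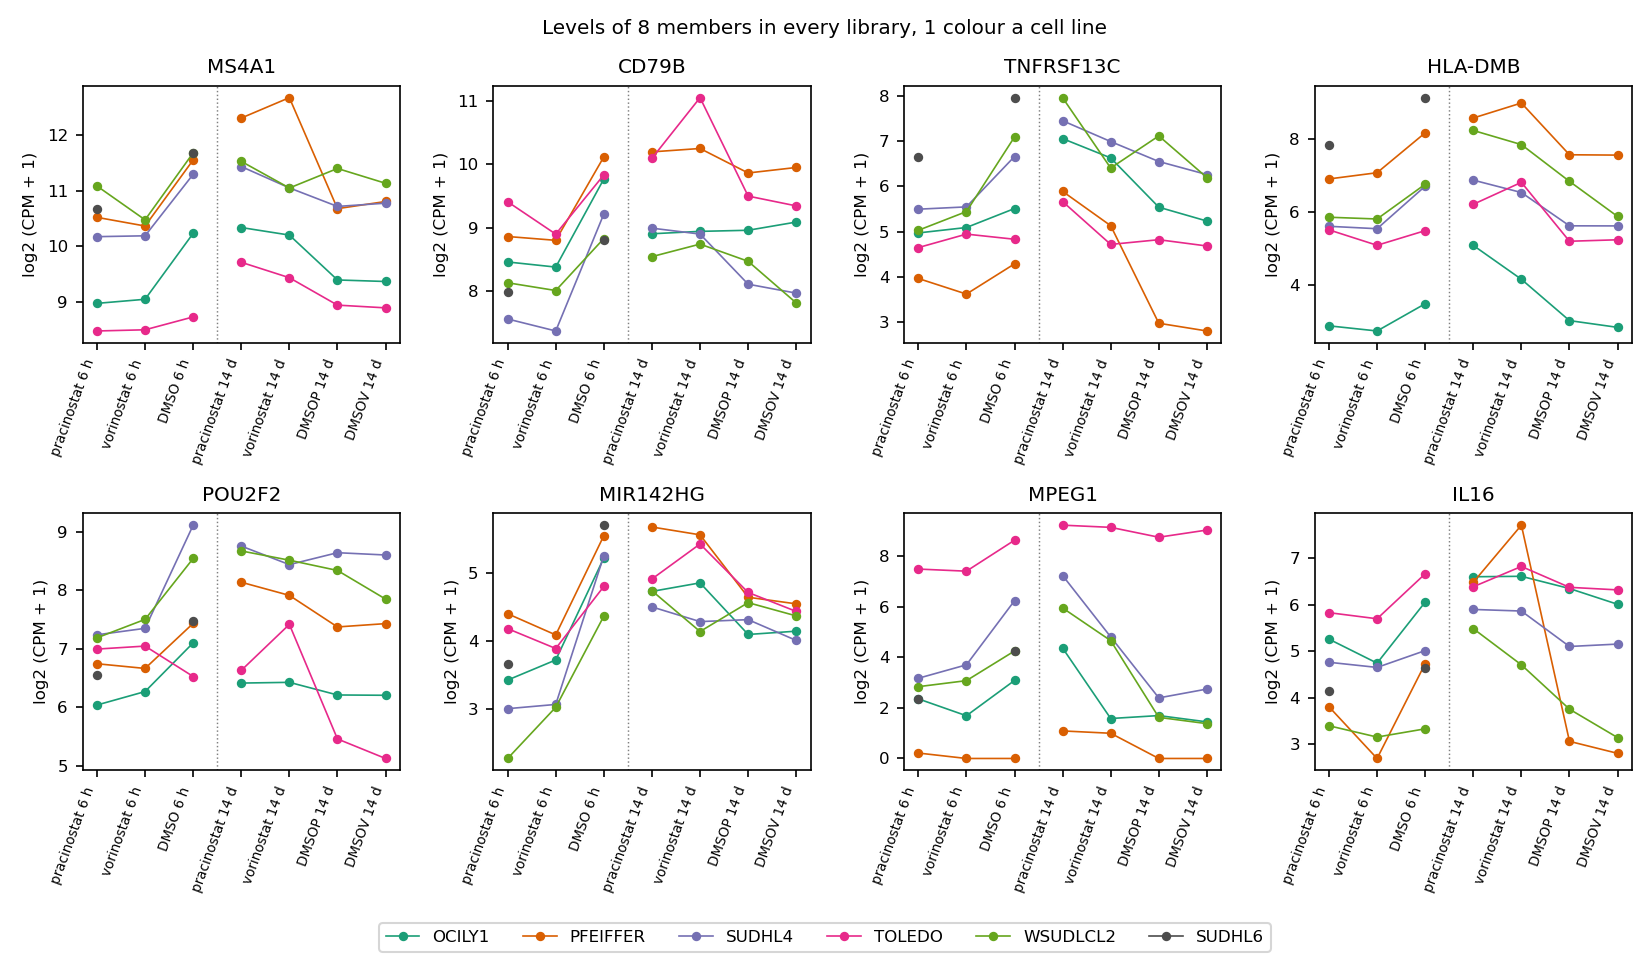
Levels of 8 members on a log2 (CPM + 1) axis in each library, with 6 h on the left of each panel and 14 days on the right, drugs before DMSO, and 1 colour per cell line. Within most lines the 6 h points with drug lie under DMSO and the 14 day points with drug lie over DMSO, while the distance between lines, as for MPEG1, is larger than either difference.

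Both genes of antigen presentation act in loading of MHC class II. HLA-DMB, a chain of the HLA-DM molecule that exchanges the peptide in class II (chr6:32934629-32941070, minus strand), had 6.33, 118, 47.5, 44.4 and 56.6 CPM with pracinostat and 5.65, 133, 45.4, 32.8 and 54.8 CPM with vorinostat, against 10.2, 285, 103, 43.7 and 107 CPM with DMSO at 6 h. Its 14 day levels were 32.8, 378, 116, 72.7 and 299 CPM with pracinostat and 16.7, 504, 91.2, 111 and 228 CPM with vorinostat, against 7.09, 188, 48.0, 35.5 and 113 CPM in DMSOP and 6.12, 187, 47.9, 36.6 and 57.5 CPM in DMSOV. At 14 days both drugs were above both DMSO sets in all 5 lines, although the groups overlapped because PFEIFFER had far more than OCILY1, and the differences were -0.84 ± 0.40 at 6 h and 1.42 ± 0.30 at 14 days. At 6 h TOLEDO alone had a pracinostat value above DMSO. HLA-DOB, a chain of HLA-DO, which restrains HLA-DM in B cells, had 3.08 to 15.5 CPM (median 4.75) in the 10 drug libraries against 2.30 to 32.9 CPM (median 8.41) in the 5 DMSO libraries at 6 h. It had 5.46 to 34.4 CPM (median 24.8) in the drug libraries against 2.90 to 29.6 CPM (median 4.71) in the DMSO libraries at 14 days. D14 of HLA-DOB was 2.85 in PFEIFFER and between 0.32 and 1.01 in the other 4 lines.

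The promoters of HLA-DMB and HLA-DOB are shown with that of CD22 because all 3 are poor in CpG and hold a CCAAT box, the core letters of the Y box of class II promoters. Each is the RefSeq window from 250 bases before to 50 bases after the gene start of RefSeq (GRCh38.p14), in the gene's direction, with CCAAT or its reverse complement ATTGG in capitals. The windows are chr6:32940979-32941278 and chr6:32816953-32817252, both on the minus strand, and chr19:35328937-35329236 on the plus strand.
HLA-DMB: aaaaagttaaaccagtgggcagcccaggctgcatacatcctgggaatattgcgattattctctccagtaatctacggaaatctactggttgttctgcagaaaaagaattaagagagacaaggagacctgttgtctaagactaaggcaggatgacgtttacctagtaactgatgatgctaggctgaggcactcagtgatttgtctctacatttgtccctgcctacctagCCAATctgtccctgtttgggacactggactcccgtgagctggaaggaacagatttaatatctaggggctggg
HLA-DOB: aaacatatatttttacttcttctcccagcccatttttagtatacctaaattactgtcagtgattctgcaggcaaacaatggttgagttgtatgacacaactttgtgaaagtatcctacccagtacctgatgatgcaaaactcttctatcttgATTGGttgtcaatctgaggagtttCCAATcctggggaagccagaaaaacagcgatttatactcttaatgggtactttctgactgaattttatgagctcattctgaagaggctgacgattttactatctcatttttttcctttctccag
CD22: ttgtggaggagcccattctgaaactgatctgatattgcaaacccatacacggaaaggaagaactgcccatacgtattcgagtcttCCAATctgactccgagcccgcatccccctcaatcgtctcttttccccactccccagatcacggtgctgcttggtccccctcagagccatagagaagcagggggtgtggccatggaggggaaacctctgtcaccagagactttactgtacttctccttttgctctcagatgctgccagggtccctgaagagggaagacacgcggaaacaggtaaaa
The RefSeq start is 42 bases inside the GENCODE gene whose span is given here for HLA-DMB, 3464 bases inside it for HLA-DOB and 9926 bases inside it for CD22, so the windows of HLA-DOB and CD22 lie at starts within those spans. The CCAAT box starts 22 bases before the RefSeq start in HLA-DMB, at 98 (as ATTGG) and 74 bases before it in HLA-DOB, and 165 bases before it in CD22. The windows hold 4, 2 and 9 CpG in that order. A match to these letters is a description and not a mapped binding site.

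The innate defence and cytokine group had 7 members. MPEG1 (perforin-2, chr11:59208510-59212951, minus strand), a pore-forming protein of macrophages that kills bacteria, had 4.12, 0.161, 8.01, 179 and 6.15 CPM with pracinostat and 2.22, 0, 12.0, 168 and 7.44 CPM with vorinostat, against 7.48, 0, 74.4, 395 and 18.0 CPM with DMSO at 6 h. At 14 days it had 19.6, 1.13, 149, 597 and 60.8 CPM with pracinostat and 1.99, 0.996, 27.0, 562 and 24.2 CPM with vorinostat, against 2.24, 0, 4.26, 429 and 2.08 CPM in DMSOP and 1.73, 0, 5.70, 522 and 1.60 CPM in DMSOV. It had the largest D14 of the members (-1.27 ± 1.13 at 6 h and 2.36 ± 1.57 at 14 days), and its level set the lines far apart: TOLEDO expressed it throughout, and PFEIFFER had at most 1.13 CPM in any library. The 14 day difference was large in WSUDLCL2 (4.18) and SUDHL4 (3.61) and small in TOLEDO (0.29). Median summed levels of myeloid and fibroblast markers and the median of TRAC were also higher at 14 days with the drugs, as given above. The part of other cells in the 14 day difference of MPEG1 was not tested.

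IL16, a chemoattractant for CD4-bearing cells (chr15:81159575-81314058, plus strand), had 37.4, 13.0, 26.2, 56.0 and 9.55 CPM with pracinostat and 25.8, 5.48, 24.2, 51.0 and 7.91 CPM with vorinostat, against 65.7, 25.6, 31.4, 101 and 9.08 CPM with DMSO at 6 h. IL16 levels at 14 days were 96.3, 88.6, 58.8, 82.8 and 43.9 CPM with pracinostat and 97.0, 209, 57.4, 112 and 25.2 CPM with vorinostat, against 80.6, 7.36, 33.4, 82.1 and 12.5 CPM in DMSOP and 63.6, 5.99, 34.7, 79.0 and 7.84 CPM in DMSOV. Each drug was above both DMSO sets in all 5 lines at 14 days, by the most in PFEIFFER (4.29). NCF1, a subunit of the phagocyte oxidase, differed by -0.95 ± 0.72 at 6 h and 0.55 ± 0.70 at 14 days. Near-identical copies of NCF1 exist, of which NCF1B lay just outside the 14 day threshold (D14 0.49), so the counts of either are uncertain. MX2, an interferon-induced GTPase, was at or near 0 in SUDHL4 and WSUDLCL2 at 6 h, and its D14 of 0.81 rests on WSUDLCL2 (3.67), where the pracinostat and vorinostat libraries had 3.34 and 3.99 CPM and both DMSO libraries 0. SOCS1, which inhibits JAK kinases, was highest over DMSO at 14 days in OCILY1 (2.41, others 0.49 to 0.78). PNOC, the precursor of nociceptin, differed by -1.25 ± 0.42 at 6 h and 0.54 ± 0.74 at 14 days, and TBKBP1, a partner of the kinase TBK1, by -0.96 ± 0.62 at 6 h and 0.51 ± 0.48 at 14 days.

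Transcription and germinal centre genes numbered 9. POU2F2 (OCT2, chr19:42086110-42196585, minus strand), a B-cell transcription factor that binds the octamer motif, had 64.6, 106, 149.9, 126 and 145 CPM with pracinostat and 76.0, 100.3, 162, 131 and 180.3 CPM with vorinostat, against 136, 172, 554, 91.0 and 373 CPM with DMSO at 6 h. The 14 day cultures had 84.1, 281, 432, 98.0 and 408 CPM with pracinostat and 84.9, 240.1, 346, 169.9 and 365 CPM with vorinostat, against 72.9, 165, 399, 42.9 and 323 CPM in DMSOP and 72.7, 171, 388, 33.8 and 229.8 CPM in DMSOV. TOLEDO had more POU2F2 with the drugs than with DMSO at 6 h and the largest 14 day difference (1.75), while in the other 4 lines both drugs were below DMSO at 6 h.

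The other transcription genes were less tied to B cells. BHLHE40, a repressor that also acts in the circadian clock, differed by -0.96 ± 0.60 at 6 h and 0.58 ± 1.58 at 14 days. MXD4, a MAX partner that opposes MYC, differed by -0.51 ± 0.69 at 6 h and 1.04 ± 0.75 at 14 days, and NR1H2, the sterol-sensing receptor LXR-beta, by -0.73 ± 0.25 at 6 h and 0.56 ± 0.34 at 14 days. CRTC1, a coactivator of CREB, was lower at 6 h in every line (-1.69 to -1.43 in 4 lines and -0.71 in TOLEDO) with D14 of 1.03. SETBP1, a chromatin-associated protein, differed by -0.52 ± 0.21 at 6 h and 1.32 ± 0.46 at 14 days. NUGGC, a GTPase of germinal centre B cells, had D6 above 0 in PFEIFFER and TOLEDO (0.53 and 1.09), and ZNF70 is a zinc finger gene next to VPREB3.

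VPREB3 and PLEKHG1 were the members with an octamer (ATGCAAAT or its reverse complement ATTTGCAT), the motif of POU2F2, in the same RefSeq window. Their promoters are chr22:23754376-23754675 on the minus strand and chr6:150632714-150633013 on the plus strand, printed in the gene's direction with the octamer in capitals.
VPREB3: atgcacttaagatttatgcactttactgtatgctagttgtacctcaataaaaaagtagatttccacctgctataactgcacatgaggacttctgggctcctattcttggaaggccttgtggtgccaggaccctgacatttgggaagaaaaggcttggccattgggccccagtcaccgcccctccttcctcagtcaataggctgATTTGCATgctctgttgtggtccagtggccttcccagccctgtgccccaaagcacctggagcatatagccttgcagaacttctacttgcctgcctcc
PLEKHG1: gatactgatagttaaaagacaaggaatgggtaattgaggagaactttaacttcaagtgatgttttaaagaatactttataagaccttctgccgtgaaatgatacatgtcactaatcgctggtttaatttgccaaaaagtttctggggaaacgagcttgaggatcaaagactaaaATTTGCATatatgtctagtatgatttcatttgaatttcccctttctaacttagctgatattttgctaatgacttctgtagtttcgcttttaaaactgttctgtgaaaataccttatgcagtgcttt
The octamer starts 47 bases before the RefSeq start in VPREB3 and 76 bases before it in PLEKHG1, where these starts lie 43 and 33081 bases inside the GENCODE genes. VPREB3 had 93.5, 47.4, 97.9, 157 and 88.9 CPM with pracinostat and 101, 53.4, 81.4, 118 and 79.9 CPM with vorinostat, against 152, 60.8, 136, 197 and 133 CPM with DMSO at 6 h. VPREB3 levels at 14 days were 134, 74.3, 244, 307 and 308 CPM with pracinostat and 123, 68.3, 187, 354 and 167 CPM with vorinostat, against 109, 58.5, 148, 195 and 138 CPM in DMSOP and 108, 59.9, 168, 232 and 101 CPM in DMSOV. It was below DMSO in all 5 lines at 6 h and above both DMSO sets in all 5 lines at 14 days. PLEKHG1, a guanine nucleotide exchange factor, was above DMSO at 6 h in PFEIFFER (0.69) and below DMSO at 14 days in TOLEDO (-0.65).

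The group of GTPase, G-protein and kinase signalling had 10 members with a median D6 of -0.60 and a median D14 of 0.69. RHOH, a small G protein of blood cells that lacks GTPase activity, differed by -0.76 ± 0.45 at 6 h and 0.55 ± 0.34 at 14 days. RAPGEF1, an activator of RAP1, was raised at 14 days mainly in SUDHL4 (2.37) and WSUDLCL2 (1.20). LRRK2, the kinase mutated in familial Parkinson disease, differed by -0.70 ± 0.74 at 6 h and 1.45 ± 1.16 at 14 days. CYTIP, which anchors cytohesin-1 in lymphocytes, sat near the 6 h threshold (-0.50 ± 0.51 at 6 h and 0.55 ± 0.39 at 14 days). RGS3 and GPSM3 regulate G-protein signalling, with -0.67 ± 0.85 at 6 h and 0.82 ± 0.72 at 14 days for RGS3 and -0.53 ± 0.14 at 6 h and 0.61 ± 0.49 at 14 days for GPSM3. NEK6 is a mitotic kinase, and it had D14 above 2 in OCILY1 (2.52) but below 0 in TOLEDO (-1.18). MOB3A, PRAG1 and PLEKHG1 completed the group.

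Of the 8 genes of the cytoskeleton, EVL and CTTN act on actin, with -1.33 ± 1.36 at 6 h and 0.91 ± 0.71 at 14 days for EVL and -0.98 ± 1.08 at 6 h and 0.72 ± 0.87 at 14 days for CTTN. SEPTIN9, a filament-forming GTPase, moved in every line at both times (-0.56 ± 0.22 at 6 h and 0.57 ± 0.25 at 14 days). GAS7, named for its expression in growth-arrested cells, ranged at 14 days from -1.08 in WSUDLCL2 to 4.53 in SUDHL4, with 3.46 in OCILY1. KRT10 and its antisense partner KRT10-AS1 overlap on opposite strands and moved together, KRT10 by -0.84 ± 0.47 at 6 h and 0.69 ± 0.54 at 14 days and KRT10-AS1 by -0.56 ± 0.60 at 6 h and 1.34 ± 0.59 at 14 days. The strand setting is not stated, so reads of this pair could have been shared. DNAH1, PDLIM2 and PICK1 were the others of the group, whose D6 ran from -1.33 to -0.56 and D14 from 0.57 to 1.42.

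Membrane, lipid and vesicle genes made up 14 members. NIPAL2, a membrane protein of the magnesium transporter family, had the lowest D6 (-1.94 ± 0.88 at 6 h and 0.86 ± 1.17 at 14 days) and had 0.633 to 13.3 CPM with the drugs at 6 h, against 2.53 to 48.0 CPM with DMSO. MGLL, the lipase that degrades the endocannabinoid 2-arachidonoylglycerol (chr3:127689062-128052190, minus strand), had 0.294, 50.6, 7.67, 2.26 and 3.61 CPM with pracinostat and 0.171, 48.5, 4.81, 1.47 and 6.17 CPM with vorinostat, against 0.534, 206, 20.0, 10.1 and 9.36 CPM with DMSO at 6 h. The later MGLL levels, at 14 days, were 9.25, 114, 22.2, 0.936 and 44.6 CPM with pracinostat and 3.98, 88.2, 25.3, 0.903 and 36.2 CPM with vorinostat, against 0.124, 175, 9.42, 5.39 and 4.75 CPM in DMSOP and 0, 182, 10.9, 4.08 and 1.89 CPM in DMSOV. MGLL was lower in all 5 lines at 6 h (at or near the 3-count limit in OCILY1), but at 14 days it was higher in OCILY1, SUDHL4 and WSUDLCL2 and lower in PFEIFFER and TOLEDO (-0.84 and -2.02). PGAP3, which remodels GPI anchors, had 2.55 to 5.62 CPM (median 3.57) in the 10 drug libraries against 10.2 to 12.0 CPM (median 11.7) in the 5 DMSO libraries at 6 h, with no overlap, and 5.97 to 17.3 CPM (median 10.3) in the drug libraries against 4.65 to 10.9 CPM (median 6.91) in the DMSO libraries at 14 days. SLC22A5 carries carnitine, LAMTOR1 anchors mTORC1 signalling at the lysosome, and ATP8B1 is a lipid flippase, with D14 of 0.50, 0.58 and 0.89. GRAMD1B, a sterol transfer protein, had 4.75, 199.95, 4.23, 13.4 and 2.01 CPM with pracinostat and 3.32, 122, 2.73, 10.1 and 3.68 CPM with vorinostat at 14 days, against 0, 118, 0.448, 69.96 and 1.04 CPM in DMSOP and 0, 118, 0.456, 56.0 and 0.436 CPM in DMSOV. Its D14 of 1.13 ± 2.32 thus came mostly from lines at or near the 3-count limit with DMSO, and TOLEDO was lower with both drugs (-2.39). ATP8B1 overlaps its antisense gene ATP8B1-AS1, also a member, on the other strand, and their reads could have been shared too. SYT17, CPNE5, SYS1, TMC8, CYB561A3, NAGPA and TMEM229B were the others of this group, whose D14 ran from 0.50 to 1.48.

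The 15 members placed in the noncoding and pseudogene group had D6 from -1.60 to -0.53 and D14 from 0.51 to 1.81. MIR142HG, the host of the blood-cell microRNA miR-142 (chr17:58330884-58332508, minus strand), had 9.71, 20.1, 7.01, 17.1 and 3.82 CPM with pracinostat and 12.2, 16.0, 7.36, 13.8 and 7.12 CPM with vorinostat, against 36.2, 45.7, 37.1, 26.8 and 19.6 CPM with DMSO at 6 h. MIR142HG levels at 14 days were 25.4, 50.0, 21.6, 29.0 and 25.6 CPM with pracinostat and 27.9, 46.1, 18.4, 41.9 and 16.6 CPM with vorinostat, against 16.1, 23.9, 18.8, 25.2 and 22.6 CPM in DMSOP and 16.6, 22.3, 15.0, 20.6 and 19.6 CPM in DMSOV. At 6 h it was below DMSO in all 5 lines with both drugs. At 14 days pracinostat was above both DMSO sets in all 5 lines and vorinostat was above both in OCILY1, PFEIFFER and TOLEDO. The mature microRNAs made from this transcript were not measured here. Both are shown because they are what the host gene is known for, with the seed (bases 2 to 8) in capitals, from RefSeq on GRCh38.p14, where the hairpin spans chr17:58331232-58331318 inside MIR142HG on the same strand.
hsa-miR-142-3p: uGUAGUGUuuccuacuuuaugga
hsa-miR-142-5p: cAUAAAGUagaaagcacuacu
The 3p arm spans chr17:58331245-58331267 and the 5p arm chr17:58331283-58331303, and their seeds differ.

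NAPSB, a transcribed pseudogene of the aspartic protease napsin, differed by -1.03 ± 0.24 at 6 h and 1.03 ± 1.14 at 14 days. It was above DMSO at 14 days by 1.36 to 1.73 in 4 lines and was below DMSO in TOLEDO (-0.99). NAPSB lies inside the span of NR1H2 on the other strand, so some reads of this pair of members could have been shared. The pair differed in TOLEDO at 14 days, where NR1H2 was above DMSO. The others were AC046185.3, AC078846.1, AFTPH-DT, ENSG00000225302, RRN3P3, WAC-AS1 and Z83843.1, besides those named here and above. LINC02397 had D14 of 1.81 and COLCA1 of 1.60, and ENSG00000228989 was, with PGAP3 and SPRYD4, among 4 members whose drug libraries all lay below the DMSO libraries at 6 h (2.98% of all genes did). At 14 days 0 members had drug libraries all above DMSO (0.255% of all genes).

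The remaining groups were small or mixed. RNA, DNA repair and mitochondrial genes were 5, among them SWSAP1, a protein of DNA repair (-0.99 ± 0.64 at 6 h and 0.90 ± 0.60 at 14 days), the mitochondrial ribosomal protein MRPS17 (-0.54 ± 0.27 at 6 h and 0.63 ± 0.26 at 14 days) and the tRNA methyltransferase TRMT2A (-0.64 ± 0.34 at 6 h and 0.58 ± 0.36 at 14 days), with EME2 and PPAN as the others. RSPO1, a secreted enhancer of WNT signalling, owed its D6 of -1.08 largely to TOLEDO (-4.26), where DMSO had 198 CPM and every other 6 h library of any line at most 22.7 CPM. Its D14 of 1.17 included 1 WSUDLCL2 library with pracinostat at 288 CPM, against 57.0 CPM or less in the others. ZMAT1, a zinc finger gene, had 14.4, 3.37, 2.84, 19.5 and 1.49 CPM with pracinostat and 10.1, 1.71, 3.90, 16.4 and 1.11 CPM with vorinostat, against 23.5, 3.57, 9.19, 30.5 and 2.10 CPM with DMSO at 6 h. ZMAT1 had 34.7, 9.65, 19.1, 91.1 and 21.6 CPM with pracinostat and 21.1, 9.39, 16.4, 99.7 and 15.7 CPM with vorinostat, against 18.2, 3.19, 4.04, 18.8 and 1.27 CPM in DMSOP and 23.2, 4.74, 7.07, 23.5 and 0.726 CPM in DMSOV at 14 days. Every line had less ZMAT1 with the drugs at 6 h than with DMSO, and 4 lines had more with both drugs than in both DMSO sets at 14 days, OCILY1 with vorinostat being between them. RHEX, a regulator of erythroid expansion, differed by -0.99 ± 0.50 at 6 h and 1.69 ± 1.91 at 14 days, and MST1, a hepatocyte-growth-factor-like protein, by -0.59 ± 0.54 at 6 h and 1.10 ± 0.86 at 14 days. The other 10 members of this mixed group were HECW2, DDAH1, ADPRHL1, RCBTB2, LBHD1, BTBD9, BCAS4, C2orf76, SPRYD4 and LRRC27, and D14 of the group ran from 0.50 to 1.86.

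Near the thresholds the members did not stand apart from other genes. Just inside the 6 h threshold were EPHB4 (-0.50), CYTIP (-0.50) and HLA-DOB (-0.51), and just outside were DEF8, LHPP and SLC2A6 (all -0.50 when rounded). At the 14 day threshold LRRC27 (0.50), SPRYD4 (0.50) and VPREB3 (0.50) were inside, and NCF1B (0.49), NCF4 (0.49) and CERKL (0.49) outside. MST1, SWSAP1 and LRRC27 had the lowest mean levels among members (2.04, 2.05 and 2.08 log2 CPM), and ZNF688, MDFIC and AC107027.3 lay just under the level rule (1.98, 1.98 and 1.95). The number of members depended on the scaling: with library totals in place of TMM factors it was 64, all of them among the 103.

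SUDHL6, which entered the rule through the mean level alone, was read next. With 1 library per group there is no replicate check in SUDHL6. Of the 103 members, 93 (90.3%) were lower with pracinostat than with DMSO at 6 h, against 50.1% of the 10187 genes. A difference of -0.5 or less was found for 71 members (68.9%), against 20.4% of all genes, and the members' median was -0.80. The members were chosen for low D6 in the other lines, and the other genes with low D6 were not set beside them. These shares are thus not shown to be a trait of the members. MS4A1 had 1639 CPM with pracinostat and 3296 CPM with DMSO, HLA-DMB 224 CPM with pracinostat and 557 CPM with DMSO, and TNFRSF13C 99.4 CPM with pracinostat and 247 CPM with DMSO. MIR142HG had 11.6 CPM with pracinostat and 50.9 CPM with DMSO. The 10 members that were not lower included NUGGC, VPREB3, GAS7, ENSG00000225302, PTPN6, RHOH, PDLIM2, ZNF70 and CPNE5. CD22 had 479 CPM with pracinostat and 572 CPM with DMSO in SUDHL6, a smaller difference than in OCILY1.

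Each of the 5 lines was then read with genes chosen by D6 and D14 of the other 4. The level rule still used the mean over all 37 libraries, those of the line itself included. Applied without SUDHL4, the rule kept 85 genes, of which 80.0% were lower at 6 h and higher at 14 days in SUDHL4, against 17.5% of all genes there. Without WSUDLCL2 it kept 96 genes, and 77.1% of them had this pattern in WSUDLCL2, against 15.4% of all genes there. The corresponding values were 60.6% of 109 genes in PFEIFFER against 19.1%, 59.3% of 135 genes in OCILY1 against 17.0%, and 49 of 129 genes in TOLEDO against 14.4%. TOLEDO shared the pattern least often among the 5, with a median 6 h difference of -0.22 over the genes chosen without it. Between 65 (SUDHL4 left out) and 84 (OCILY1 left out) of the genes chosen this way were among the 103 members. These are counts with no test, since genes are not replicates.

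**Figure D4:**
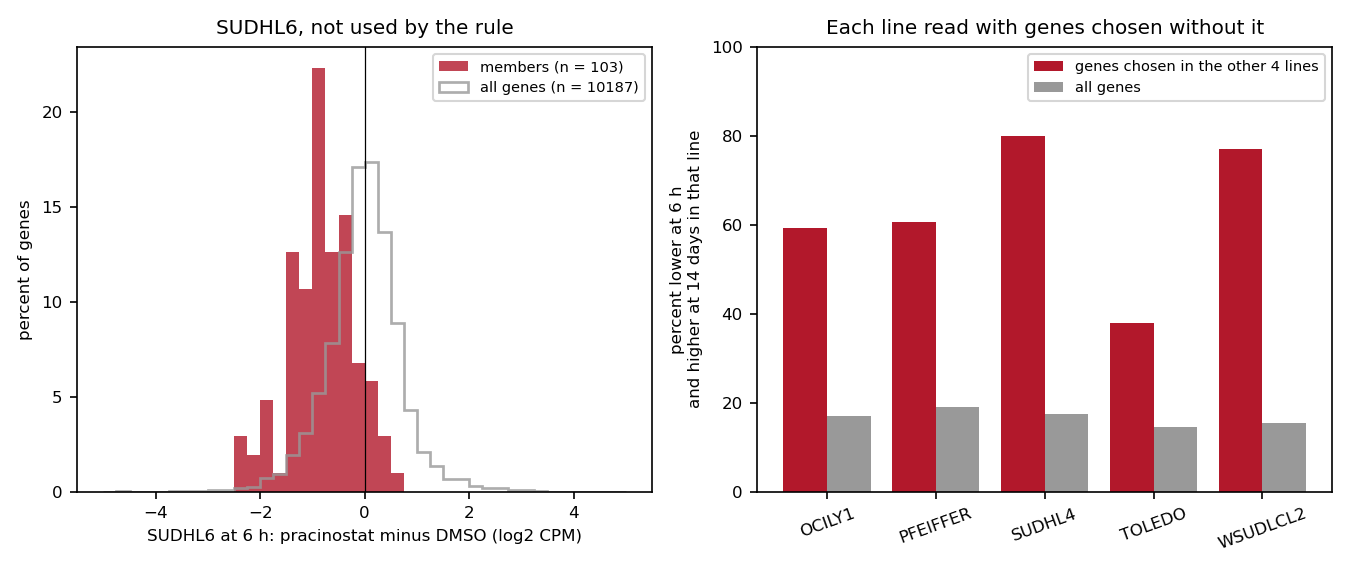
On the left, histograms of pracinostat minus DMSO at 6 h in SUDHL6 (log2 CPM) for the 103 members (filled) and all 10187 genes (outline), in percent of genes, with most members (93) left of 0. On the right, bars from 0 give for each line the percentage of genes lower at 6 h and higher at 14 days in that line, among genes chosen by D6 and D14 of the other 4 lines and among all genes, with the tallest bar in SUDHL4 (80.0%) and the lowest of the dark bars in TOLEDO (49 of 129 genes).

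Pracinostat and vorinostat were compared directly, a difference that the rule did not use. At 6 h 0 of the 103 members passed (edgeR quasi-likelihood test with the line as block, Benjamini-Hochberg adjusted p under 0.05), where 0.0152% of the 13177 genes tested did. DESeq2 also called 0 members at 6 h, and 9 members had an unadjusted p under 0.05 in edgeR and 11 in DESeq2. The median difference of the members was 0.13, with 75 of 103 positive, meaning less lowering with pracinostat, against 0.01 over all genes and 52.3% positive. COLCA1 had the smallest p, with log2 -0.92 ± 0.27 (SE; 95% interval -1.48 to -0.35; unadjusted p = 0.00328, edgeR adjusted p = 0.361), and was lower with pracinostat in 4 of 5 lines. RCBTB2 was higher with pracinostat in 5 of 5 lines by log2 0.51 ± 0.17 (SE; 95% interval 0.16 to 0.87; unadjusted p = 0.00713, edgeR adjusted p = 0.393). These members thus did not pass the correction, and the half-width of the 95% interval had a median of 0.55, so that for 83 members a difference of more than 1 log2 unit lay outside the interval and for 20 it did not.

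At 14 days 0 of the 103 members and 0 of 14037 genes (0%) passed between the drugs in edgeR, and 0 members in DESeq2, with 6 members at an unadjusted p under 0.05 in edgeR and 8 in DESeq2. The median was 0.10, with 66 members higher with pracinostat, against 0.01 and 51.2% over all genes. MPEG1 had the largest such difference among those 6, log2 1.83 ± 0.63 (SE; 95% interval 0.49 to 3.16; unadjusted p = 0.0106, edgeR adjusted p = 0.472), and was higher with pracinostat in 5 of 5 lines. In WSUDLCL2 MPEG1 had 60.8 CPM with pracinostat and 24.2 CPM with vorinostat. TNFRSF13C was also higher in 5 of 5 lines, by log2 0.78 ± 0.32 (SE; 95% interval 0.09 to 1.47; unadjusted p = 0.0292, edgeR adjusted p = 0.504), whereas RRN3P3 was lower in 5 of 5, by log2 -0.67 ± 0.25 (SE; 95% interval -1.20 to -0.14; unadjusted p = 0.0172, edgeR adjusted p = 0.491). For 44 members the interval reached past 1 log2 unit in at least 1 direction, so these libraries do not show that the drugs acted alike. The sources used here give no dose, and the libraries of vorinostat in SUDHL4 and WSUDLCL2 were the shallowest of 14 days at 3.19 and 3.42 M.

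The solvent sets did not differ for any member past the threshold. Between DMSOV and DMSOP at 14 days edgeR called 0 of 103 members and 0 of 14037 genes (0%), DESeq2 called 0 members, and the members with an unadjusted p under 0.05 numbered 0 in edgeR and 1 in DESeq2. The members' median difference was -0.08, with 62 lower in DMSOV, against -0.01 over all genes.

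The solvent cultures were set beside the drug cultures over time. In DMSO the 14 day level minus the 6 h level had a median of -0.37 for the members, and 93 of 103 were lower at 14 days, against 46.2% of all genes and a median of 0.03. The rule sets drug against DMSO at each time, so it favours genes that are high in 6 h DMSO or low in 14 day DMSO, and this difference is not independent of it. With the drugs, the 14 day level was higher than the 6 h level for all 103 members, by a median of 1.22. The rule favours this count, since the change with the drugs is D14 minus D6 plus the change in DMSO. Set directly against 6 h DMSO, the 14 day drug level was higher for 83 members and lower for 20, with a median of 0.42. That value is D14 plus the change in DMSO, so it is not independent of the rule either. LINC02397 (1.61) and LRRK2 (1.46) ended highest above 6 h DMSO, and CTTN (-0.69) and ZNF70 (-0.54) lowest below it. MS4A1 in OCILY1 is an example, with 1296 CPM with pracinostat and 1179 CPM with vorinostat at 14 days, against 673 CPM in DMSOP, 660.4 CPM in DMSOV and 1205 CPM in 6 h DMSO.

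The members varied widely between lines before any drug effect. The range of the mean DMSO level over the 5 lines had a median of 3.09 log2 units, against 1.24 over all 10187 genes, and it passed 5 units for 25 members (24.3%), against 6.52%. MPEG1 had the widest range, 10.48, followed by BANK1 (8.92), CYTIP (8.75), MX2 (8.71) and MGLL (8.59). The lowest DMSO level was in TOLEDO for 38 members and in PFEIFFER for 35, and in SUDHL4 for 6. These counts were not set beside all genes, so they are not shown to be a trait of the members. The DMSO libraries also entered the rule, and the lower mean level of the members was not allowed for in the ranges. The level of a gene thus differed more between the lines than between drug and DMSO for many members.

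Other genes of the same pathways, left on the pathway lists once the members were taken out, were tested for both drugs against DMSO (edgeR, adjusted over all genes). In these tests the pracinostat and vorinostat libraries of a line count as separate observations, as do DMSOP and DMSOV at 14 days. Their p-values therefore do not rest on lines alone as replicates. Over all genes 48.8% of 13177 genes passed at 6 h (25.5% higher and 23.3% lower) and 49.7% of 14037 at 14 days (28.1% higher and 21.6% lower), so a call was common, and with library totals the share of higher calls was 62.0% in place of 52.3% at 6 h and 47.7% in place of 56.6% at 14 days. Of the members, 97 were called lower at 6 h and 89 higher at 14 days, which the rule fixes. Of 34 other B-cell receptor genes tested at 6 h, 15 were lower and 6 higher, and of 35 at 14 days 11 were higher and 1 lower, but 3 were called both lower at 6 h and higher at 14 days: CD72, FCRLA and PIK3AP1. CD72, an inhibitory co-receptor, differed by log2 -1.84 ± 0.18 (adjusted p = 1.52e-06) at 6 h and 0.57 ± 0.20 (adjusted p = 0.0268) at 14 days (± SE), and FCRLA by -0.90 ± 0.11 (adjusted p = 9.7e-06) and 0.31 ± 0.12 (adjusted p = 0.0348).

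Of 29 other B-lineage transcription factors, 13 were lower and 2 higher at 6 h, and 12 were higher and 2 lower at 14 days, with PAX5, SPIB and BCL11A called in both. PAX5, the factor of B-cell identity, differed by log2 -0.48 ± 0.14 (adjusted p = 0.00852) at 6 h and 0.47 ± 0.11 (adjusted p = 0.00183) at 14 days, and SPIB by -0.64 ± 0.16 (adjusted p = 0.0048) and 0.43 ± 0.17 (adjusted p = 0.0433). MHC class II genes other than HLA-DMB and HLA-DOB had another time course: of 17, only 2 were lower and 1 higher at 6 h, while 14 were higher and 1 lower at 14 days. HLA-DMA, the partner chain of HLA-DMB, was higher at both times, by 0.79 ± 0.19 (adjusted p = 0.00267) at 6 h and 2.32 ± 0.20 (adjusted p = 1.4e-06) at 14 days. Of the B-cell activation and homing list, 13 of 40 others were lower and 3 higher at 6 h, and of 41 at 14 days 16 were higher and 2 lower, with CD44 and TLR10 called both ways.

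Lists of other functions had few members or none, and so had the lists of B-lineage transcription factors and of activation and homing. Interferon-stimulated genes other than MX2 were lower in 2 of 25 and higher in 6 of 25 at 6 h, and higher in 14 of 29 and lower in 1 at 14 days. Of 24 other cytokine receptor and JAK-STAT genes besides SOCS1, 4 were lower and 6 higher at 6 h, and of 25 at 14 days 11 were higher and 3 lower. The 25 genes of G2/M and mitosis held no member, and all 25 were lower at 14 days, with 1 lower and 2 higher at 6 h. Of 25 genes of MYC and ribosome biogenesis, also without a member, 20 were lower at 6 h and 16 at 14 days, and 0 were higher at either time. Over all 12967 genes tested at both times, 325 were called lower at 6 h and higher at 14 days, 83 of them members, beside 1257 called lower at both.

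Promoter sequences, which the rule did not use, were at hand for 72 of the 103 members and for 8146 of the 10187 genes (RefSeq windows of 300 bases). CpG-poor windows were common among the members: the ratio of observed to expected CpG was under 0.6 in 31 of 72 (43.1%), against 13.2% of the 8146, with medians of 0.71 and 0.86. The lower mean level of the members was not allowed for, here or in the motif counts below, and its part in these shares was not tested. For 13 of the 72 the RefSeq start was more than 1000 bases from the GENCODE start, and of the other 59 members 22 (37.3%) were CpG-poor. Examples of these 22 were HLA-DMB, VPREB3, PTPN6, LCK, RHOH, PTAFR and MIR142HG, and also DNAH1, RGS3, KRT10 and NEK6. HLA-DOB, CD22, POU2F2 and IL16 were CpG-poor too, but their RefSeq starts were more than 1000 bases from the GENCODE start. Over all 27305 promoters in the table, expressed here or not, the share was 51.0%.

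**Figure D5:**
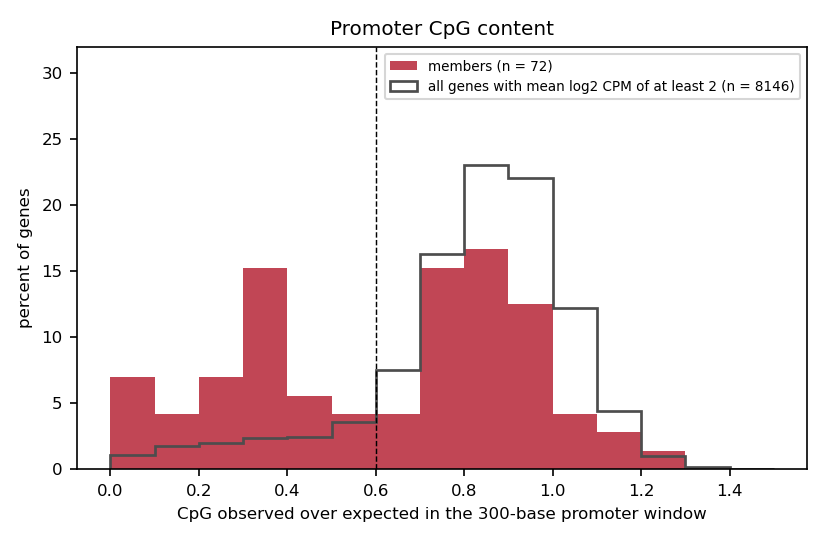
Histograms of the ratio of observed to expected CpG in the 300-base promoter window for 72 members (filled) and 8146 genes with a mean of at least 2 log2 CPM (outline), in percent of genes, with a dashed line at 0.6. Left of the line lie 43.1% of the members and 13.2% of the other set.

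Short motifs were counted on both strands of the same windows. A purine-rich site of the PU.1 type (GAGGAAGT) was in 5 of 72 members (6.94%), against 2.68% of the 8146 genes, in GAPT, BANK1, NCF1, PTPN6 and RFTN1. The octamer ATGCAAAT was in 2 (2.78% against 1.24%) and the CCAAT box in 29 (40.3% against 38.4%), the sequences printed above being examples. The ETS site CCGGAAG was in 7 (9.72% against 22.5%), the GC box GGGCGG in 44 (61.1% against 71.7%), and the cyclic AMP response element TGACGTCA in 0 (0% against 3.65%). These are counts of letters with no test, and they carry no statement about any factor.

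Positions came from GENCODE 29 on GRCh38 for 101 members. The members lay on 23 chromosomes, 44 of them overlapped a gene on the other strand, and 7 pairs of members lay within 100000 bases of each other: EVI2B and EVI2A, KRT10 and KRT10-AS1, ATP8B1 and ATP8B1-AS1, PPAN and P2RY11, CD22 and U62631.1, NR1H2 and NAPSB, and ZNF70 and VPREB3. In 5 of these pairs the genes overlap. Pairs that share reads are not independent members of the 103. Protein-coding genes were 89 of the 101 (88.1%), against 94.0% of the 10161 genes with a position.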

How the data were processed

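RNA was taken up in Trizol and sequenced after TruSeq library preparation from 1 µg of total RNA, per the labels' protocols. The raw table as deposited gives whole-number read counts for each gene, and the deposited normalized table holds log2 CPM, which the raw counts with TMM factors and a prior count of 0.25 gave back within 4.99e-06. The submitters' processing notes name STAR, edgeR and hg38. Versions, annotation release and strand setting are not stated there, in the labels or in the files. A further sample of SUDHL4 with vorinostat at 14 days was not analysed here. Some members and lists are not reported here by name.

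Values are TMM-scaled CPM or log2 CPM with a prior count of 2. Tests used edgeR 4.0.16 in R 4.3.3 on the raw counts (default low-count filter, minimum count 10 and minimum total 15; robust quasi-likelihood fit, line as block, each time apart, Benjamini-Hochberg over all genes tested), with DESeq2 1.42.0 as an alternative. No source says whether a line's libraries are separate cultures. Symbols and positions came from GENCODE 29, which gave a position to 17859 of 18011 identifiers, version ignored (4916 shared the version), so another release may have been used for counting.

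The members, lists and tests were chosen with earlier results of these data known. Named by a fixed rule were the members on the pathway lists, the 10 with the largest smaller change and those nearest to each threshold; the other members and the 11 role groups were chosen after their values were seen. Alternatives were other scalings, prior counts, level rules, single drugs, the deposited normalized values and each line left out.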

Additional observations from a re-analysis of the deposited data

Results flagged for a closer look

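Of 68 sets of 5 lines (D6 and D14 of 34 members named by the fixed rule), 7 held a line far from the other 4. The nominal rate of this flag is 1 in 20. The rule averaged these same values and can favour a gene with 1 extreme line, so that rate is no measure for the 7. At 6 h, CRTC1 was lowered less in TOLEDO (-0.71) than in the other lines (-1.69 to -1.43), EVI2B was above DMSO in WSUDLCL2 (0.74, others -1.58 to -1.03), and MST1 was lowest in SUDHL4 (-1.52, others -0.53 to -0.20). At 14 days, HLA-DOB stood out in PFEIFFER (2.85, others 0.32 to 1.01), MX2 in WSUDLCL2 (3.67, others -0.41 to 0.56) and SOCS1 in OCILY1 (2.41, others 0.49 to 0.78). NAPSB was below DMSO in TOLEDO at 14 days (-0.99), while the other lines lay between 1.36 and 1.73. A further flag was for 28 members that were lower in every line at 6 h and higher in every line at 14 days. That difference between the times was not tested, and the rule selects for it.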

How the results depend on the processing

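The 103 members became 64 with library totals in place of TMM factors (all among the 103), 283 with no rule on the mean level, and 44 with a mean of at least 4 log2 CPM. Leaving out 1 line in turn gave 85 to 135 genes. DESeq2 size factors gave 126, prior counts of 0.5 and 5 gave 110 and 103, pracinostat alone 134, vorinostat alone 97 and the deposited normalized values 113, of which 93 were among the 103. Setting each drug against the DMSO set of its own letter gives the same 103 by construction. With library totals, the share of genes chosen without a line that were lower at 6 h and higher at 14 days in it was 49.0% in OCILY1, 50.7% in PFEIFFER and 28.6% in TOLEDO. The members lower in SUDHL6 numbered 91 to 93. For 34 members named by the fixed rule, 510 values of D6 and D14 were recomputed, and 0 changed sign. The rule selected these members for the sign of both values, so this count was favoured. Of the 510, 34 set each drug against the DMSO set of its own letter and are unchanged by construction. A kept sign does not show that a value still passed its threshold. Between pracinostat and vorinostat at 6 h and at 14 days, and between DMSOV and DMSOP, 0 members were called under each alternative run, leaving out lines included. Lines pair the libraries, so the line was the block. With no replicate block, 1494 genes in place of 6433 were called for both drugs against DMSO at 6 h and 1793 in place of 6979 at 14 days. Leaving out 1 line in turn gave 5449 to 6025 at 6 h and 5705 to 6586 at 14 days. The causes of these shifts were not tested. Depth limits genes near the 3-count limit, where a difference depends on the prior count.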
